A study of Mus musculus with 2 samples.

Results

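Ribosome biogenesis was followed through 35 genes, 35 of the 32285 gene rows in the count matrices. They were chosen by symbol because their products make, modify or assemble ribosomal RNA in the nucleolus. Members and other gene lists were chosen with earlier results of these data known, so their counts beside all genes are descriptions only. The cells were mouse hematopoietic stem cells, labelled as blood, kept in suspension culture for 48 h with RO-3066 or with its vehicle dimethyl sulfoxide (DMSO), and their RNA was read from the 3' end, cell by cell, with the 10x Genomics method. The labels give neither the strain, age or sorting of the cells nor the dose or target of RO-3066. Each treatment had 1 library, so there was no replicate to measure the spread between cultures and no test was possible. Brackets after a fold give its exact 95% interval for counting error alone. Those after a median give the exact binomial 95% interval of that median over genes, not the range in which the genes lie.

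Ribosomes are built in the nucleolus, where RNA polymerase I copies the ribosomal DNA into a long precursor. Small nucleolar ribonucleoproteins (snoRNPs) of the box C/D class methylate this RNA and those of the box H/ACA class turn uridines into pseudouridine, while large assemblies of processing factors cut and fold it into the small and the large subunit. Cells that grow and divide need many new ribosomes, and blood stem cells are known for a low rate of protein synthesis that must be kept in bounds.

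Because the members are transcribed from separate promoters, the sequences around their start sites are given first. RefSeq windows from 250 bases before to 50 after a start (build GRCm38.p6) matched 30 of the 35 members. Both strands were searched for CACGTG, which is the E-box bound by Myc and related factors, for CCGGAAGT, an ETS-type site, for AAGATGG, a core of YY1 sites, and for the palindromic NRF1 site. Matches to different motifs overlapped in 0 cases among the members. CACGTG was present for 7 of 30 members (23.3%), against 8.09% of all genes with such a window. In 6 of the 33 member windows it lay after the start (18.2%), against 1.08% of all windows. CCGGAAGT was present for 8 of 30 members (26.7%) against 4.31% of all genes, AAGATGG for 1 of 30 (3.33%) against 7.28% and the NRF1 site for 1 of 30 (3.33%) against 1.07%. Of the ribosome biogenesis genes outside the 35, 112 had a window. CACGTG was present for 19 of these 112 (16.96%) and CCGGAAGT for 28 (25%), while AAGATGG was present for 7 and the NRF1 site for 3. The higher shares of CACGTG and CCGGAAGT were thus not particular to the 35 members. The shares of all genes cover 27025 genes, whatever their level in the libraries. The motif matches are letters in a window and show no binding.

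The member lowest in RO-3066, Pno1, and a member at the same level in both libraries, Utp4, both carry CACGTG, so their whole windows are shown, 5′ to 3′ along the gene, with CACGTG in capitals. The window of Pno1 is chr11:17211540-17211839, minus strand, and its capitals start at base 38 after the start site. The window of Utp4 is chr8:106893390-106893689, plus strand, with capitals from base 16.
Pno1: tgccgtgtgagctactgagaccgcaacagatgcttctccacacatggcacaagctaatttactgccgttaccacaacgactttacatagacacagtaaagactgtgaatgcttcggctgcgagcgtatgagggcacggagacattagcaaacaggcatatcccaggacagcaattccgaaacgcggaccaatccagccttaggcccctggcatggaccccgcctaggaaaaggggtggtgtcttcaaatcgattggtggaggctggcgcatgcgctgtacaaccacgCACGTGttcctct
Utp4: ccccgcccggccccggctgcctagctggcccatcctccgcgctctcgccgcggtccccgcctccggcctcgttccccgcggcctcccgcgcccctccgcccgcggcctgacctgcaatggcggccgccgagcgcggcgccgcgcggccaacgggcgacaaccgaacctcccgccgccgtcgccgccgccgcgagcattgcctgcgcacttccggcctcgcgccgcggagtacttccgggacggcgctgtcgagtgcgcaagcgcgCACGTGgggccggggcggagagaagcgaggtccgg

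For the other 5 members with CACGTG the bases around it are shown, to compare the flanks, at chr10:13193092-13193121 (minus) for Ltv1, chr6:125131811-125131840 (plus) for Nop2, chr11:3963965-3963994 (plus) for Pes1, chr11:74898092-74898121 (plus) for Tsr1 and chr10:88826765-88826789 (minus) for Utp20.
Ltv1: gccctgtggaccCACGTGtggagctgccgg
Nop2: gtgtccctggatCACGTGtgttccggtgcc
Pes1: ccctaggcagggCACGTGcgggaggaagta
Tsr1: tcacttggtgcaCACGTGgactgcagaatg
Utp20: cggcactaactaCACGTGaggaaaa

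The 7 members with CACGTG had a median log2 ratio of RO-3066 over DMSO of -0.18, from -0.71 for Pno1 to 0.013 for Nop2. The 23 without it had a median of -0.26, from -0.57 to 0.090. The hexamer was thus found in members that were lower and in members that were not.

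The DMSO library held 5833 kept cells and 175203205 UMIs (unique molecular identifiers, which stand for captured transcripts). In RO-3066 there were 3683 cells and 164914196 UMIs. The median cell had 24042 UMIs with DMSO against 34912 with RO-3066, a ratio of 1.45, and 7 barcodes occurred in both libraries. Levels are given as CPM, the UMIs of a gene per 1000000 UMIs of the kept cells of its library. Of the 12 stem cell markers searched, 12 had UMIs, with a sum of 443 CPM in DMSO and 542 in RO-3066, although the surface marker Procr stood at only 4.67 and 4.21 CPM. The 10 megakaryocyte markers summed to 5512 and 4887 CPM, almost all of it from Pf4 (platelet factor 4). Of the 9 that reached a mean of 5 CPM, 7 were higher in RO-3066, as were 4427 of all 9084 genes at that mean. The 9 erythroid markers summed to 213 and 471 CPM, of which the globin gene Hbb-bt gave 198 and 451, while Car1 was under 0.1 CPM. Neutrophil and monocyte (145 and 144 CPM, with Ly6c2 at 0 in both), mast cell (7.597 and 9.44), lymphoid (39.2 and 65.4, nearly all Nkg7) and endothelial or stromal markers (27.8 and 41.2, mostly Pecam1) were low. The part of these other cell types in the results was not tested.

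Ribosome biogenesis genes were lower in the RO-3066 library. Together the 35 members took 11363 CPM in DMSO and 9349.8 CPM in RO-3066, which is 0.823-fold (0.821 to 0.825). All 35 reached a mean of 5 CPM over both libraries. Of them, 29 were lower and 6 higher, with a median log2 ratio (of CPM plus 1) of -0.24 (-0.28 to -0.14), while the 9084 genes at this level had a median of -0.0095 and 51.3% of them were lower. At least 1.2-fold lower were 15 of 35 members, against 16.2% of all genes, and 0 of 35 were at least 1.2-fold higher, against 18.7%. At least 1.5-fold lower was 1 member, Pno1, against 2.03% of all genes. Ncl and Npm1 made up most of the sum in each library, and without them it was 4721 CPM in DMSO and 3992 in RO-3066, 0.846-fold (0.843 to 0.848). With ribosomal protein and mitochondrially encoded genes left out of the library totals, 8 members in place of 15 were at least 1.2-fold lower, and 9.92% of all genes were.

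**Figure D1:**
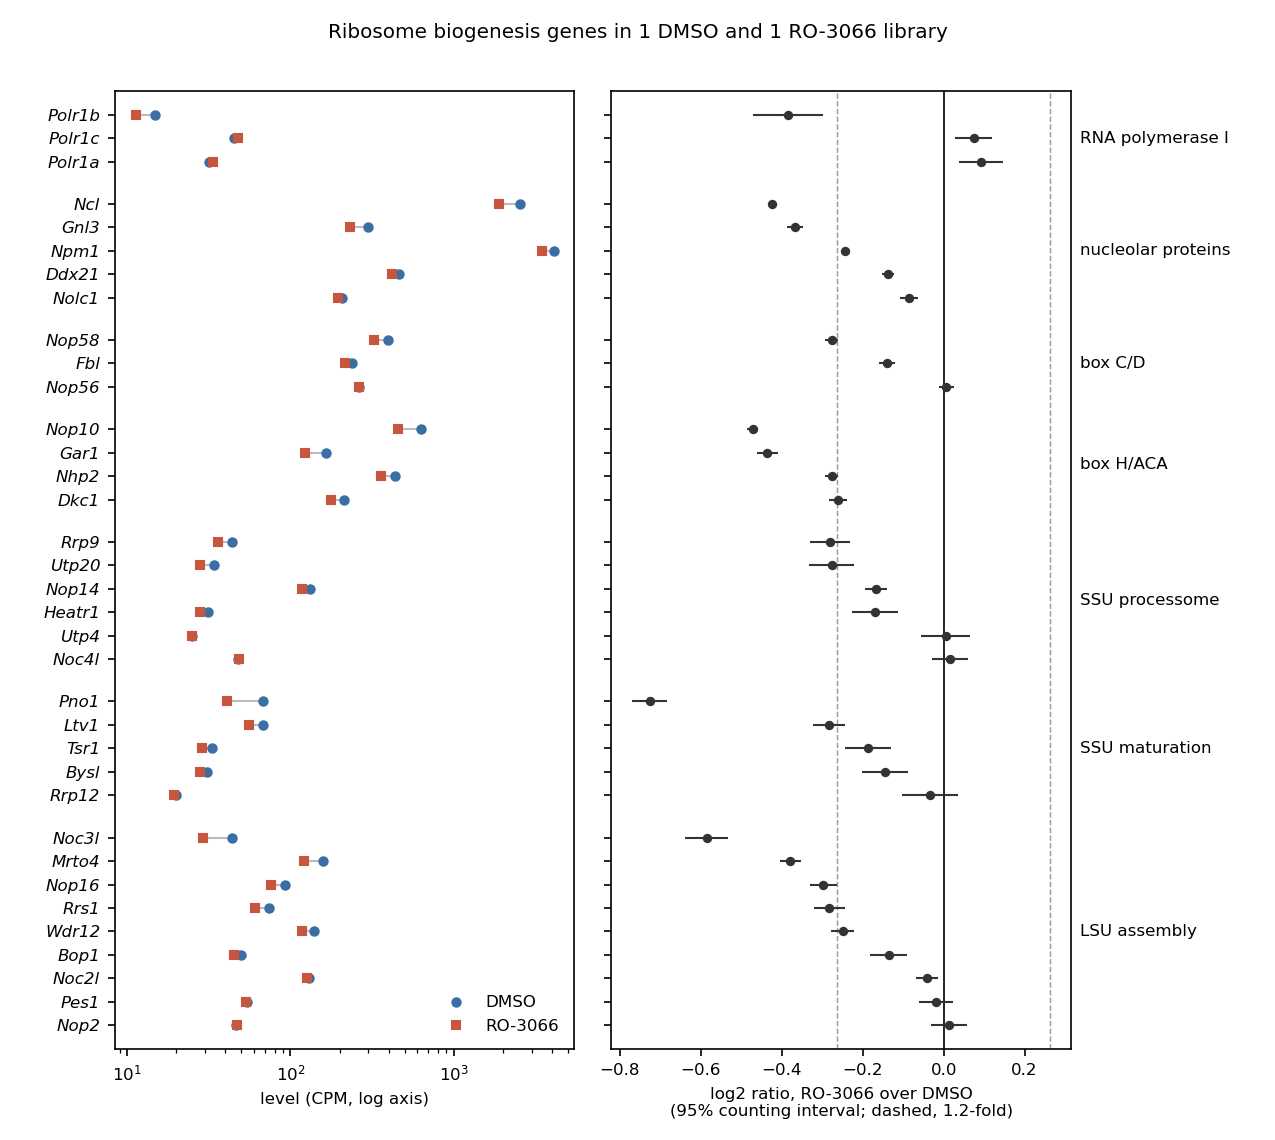
Each row is 1 member, grouped by role. Left, its level in CPM (log axis) in the DMSO library (circles) and the RO-3066 library (squares); right, the log2 ratio of these CPM values with its 95% counting interval and dashed lines at 1.2-fold. Most points on the right lie left of 0, Pno1 is the farthest at 0.605-fold, and Polr1a and Polr1c lie to the right.

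Per cell the order was the opposite. A DMSO cell held on average 341 member UMIs and an RO-3066 cell 419, since RO-3066 cells had more UMIs of all genes. UMIs per cell also depend on how deeply each library was sequenced, so that only the levels in CPM are compared below. When each cell was thinned to 10000 UMIs, a depth that 84 DMSO and 124 RO-3066 cells did not reach, the median cell held 111 member UMIs in DMSO and 92 in RO-3066. From the 25th to the 75th percentile cells held 95 to 128 member UMIs with DMSO and 77 to 107 with RO-3066, so the libraries overlapped widely. The SD over cells was 24.5 and 22.1 UMIs, where counting alone at these means would give 10.6 and 9.62. No cell of either library was at 0.

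**Figure D2:**
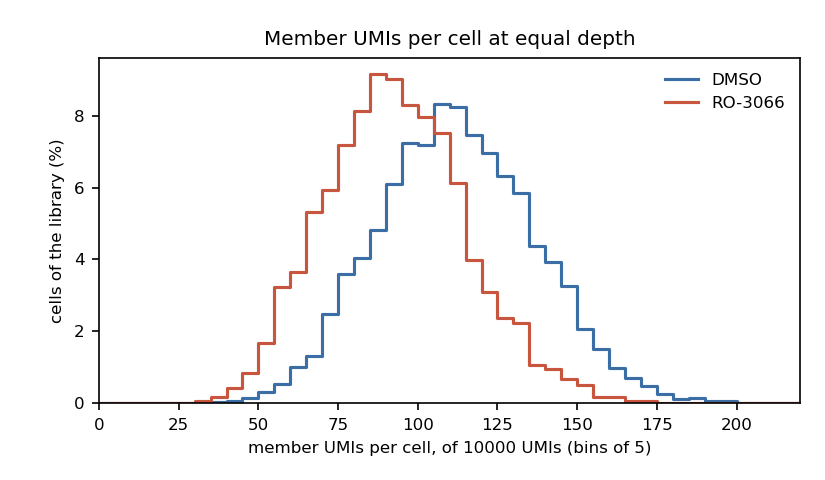
Share of cells (vertical axis, % of the library) by the number of member UMIs among 10000 UMIs of the cell (horizontal axis, bins of 5 UMIs), for 5749 DMSO and 3559 RO-3066 cells. The RO-3066 curve is moved to the left, with medians of 92 and 111, and has a similar width.

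The abundant nucleolar proteins gave the largest part of the sum, and 5 of 5 were lower (51.3% of all genes were). Ncl encodes nucleolin, an RNA-binding protein of the nucleolus that acts in ribosomal DNA transcription and early processing (chr1:86344719-86359400, mm10). It had 2551 CPM in DMSO and 1901 in RO-3066, 0.746-fold (0.742 to 0.749). Npm1, nucleophosmin, an assembly chaperone that shuttles between nucleolus and cytoplasm, had 4092 and 3456 CPM, 0.845-fold (0.842 to 0.848). Npm1 has many processed pseudogenes, so some of its reads may have been lost or misplaced in counting. Gnl3, which encodes the GTP-binding protein nucleostemin, had 300.02 and 233 CPM (0.775-fold). The RNA helicase gene Ddx21 had 463 and 422 CPM, and Nolc1, whose product Nopp140 accompanies snoRNPs, 207 and 195 CPM. Ncl was thus the lowest of this group and Nolc1, at 0.942-fold (0.928 to 0.957), the nearest to equal.

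The 3 RNA polymerase I subunit genes among the members differed in direction. Polr1a, the largest catalytic subunit, had 31.5 CPM in DMSO and 33.6 in RO-3066, 1.07-fold (1.03 to 1.11), the highest ratio of the 35. Polr1c, a subunit shared with RNA polymerase III, had 45.3 and 47.7 CPM. Polr1b, the other catalytic subunit, had 14.7 and 11.3 CPM, 0.766-fold (0.721 to 0.813). The summed level of the 3 was 91.6 and 92.6 CPM, so that 2 subunits were slightly higher and the other lower.

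The cores of both snoRNP classes were lower, box H/ACA more than box C/D. All 4 box H/ACA genes were lower (51.3% of all genes were), with sums of 1443 and 1113 CPM (0.771-fold, 0.767 to 0.776). Nop10, a small structural protein of these particles (chr2:112261926-112263269), had 628 CPM in DMSO and 453 in RO-3066, 0.721-fold (0.714 to 0.728). Gar1 had 166 and 123 CPM, Nhp2 436 and 360, and Dkc1, which encodes the pseudouridine synthase dyskerin, 212 and 177 CPM (0.835-fold). The 3 box C/D genes had sums of 896 and 806 CPM (0.90-fold, 0.893 to 0.907). Their methyltransferase gene Fbl, fibrillarin, had 239 and 217 CPM, 0.907-fold (0.895 to 0.9204). Its partners Nop56 and Nop58, which are paralogs, differed: Nop58 had 393 and 325 CPM (0.825-fold, 0.816 to 0.835), whereas Nop56 had 264 and 265 CPM (1.004-fold, 0.991 to 1.018).

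Factors of the small subunit ranged from lower to about equal in RO-3066. Of the small subunit processome, the assembly that forms on the 5' end of the precursor, 4 of 6 genes were lower. This is near the share of all genes, 51.3%. The sum was 0.902-fold (0.890 to 0.913) and the median log2 ratio -0.16 (-0.27 to 0.016). Rrp9, a protein of the U3 snoRNP, had 43.7 CPM in DMSO and 36.0 in RO-3066 (0.823-fold), and the large scaffold protein gene Utp20 33.9 and 28.0 CPM. Nop14 had 132 and 118 CPM and Heatr1 31.2 and 27.8. Noc4l, whose product binds that of Nop14, had 48.0 and 48.5 CPM, and Utp4 25.1 in both libraries. The intervals of the last pair of genes include equality.

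Pno1 stood lowest of all members. Its product is an RNA-binding factor that stays on the maturing small subunit until late steps in the cytoplasm (chr11:17203198-17211568), and it had 67.5 CPM in DMSO and 40.8 in RO-3066, 0.605-fold (0.587 to 0.623). Among the other genes of small subunit maturation and export, Ltv1 had 67.8 and 55.7 CPM, Tsr1 32.9 and 28.9, and Bysl, which encodes bystin, 30.8 and 27.9. Rrp12, an export factor, had 19.9 and 19.5 CPM (0.977-fold, 0.931 to 1.03).

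Of the 9 large subunit assembly genes 8 were lower (51.3% of all genes were), and the sum was 0.858-fold (0.851 to 0.865). Noc3l, a factor of early large subunit precursors (chr19:38788128-38819237), had 44.0 CPM in DMSO and 29.3 in RO-3066, 0.666-fold (0.643 to 0.691), second to Pno1. Mrto4, which holds the place of the ribosomal stalk protein, had 158 and 121 CPM, Nop16 92.97 and 75.7 and Rrs1 73.7 and 60.6. The PeBoW complex, which is needed to process the precursor of the large subunit RNAs, consists of the products of Pes1, Bop1 and Wdr12, and these had 54.1 and 53.4, 49.5 and 45.1, and 139 and 117 CPM. Noc2l had 130 and 126 CPM. Nop2, an RNA methyltransferase gene, had 46.6 and 47.0 CPM (1.01-fold, 0.978 to 1.04).

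Other ribosome biogenesis genes, 131 of them outside the 35, showed the same lean. Of the 129 with a mean of at least 5 CPM, 111 were lower, 41 at least 1.2-fold lower and 1 at least 1.2-fold higher, where all genes had shares of 51.3%, 16.2% and 18.7%. Their median was -0.19. The median was -0.21 over 45 small subunit genes, -0.18 over 53 large subunit genes, -0.25 over 20 genes of the RNA exosome and RNase MRP, of which 20 were lower, and -0.067 over 11 genes of ribosomal DNA transcription, of which 7 were. Among those with a mean of at least 20 CPM, the lowest were Utp18 (0.650-fold), Pwp1 (0.688-fold), Aatf (0.697-fold), Wdr18 (0.725-fold) and Wdr36 (0.730-fold). At the same minimum the highest were Nop53 (1.22-fold), the polymerase I subunit gene Polr1g (1.16-fold), Utp23 (1.08-fold), Ttf1 (1.08-fold), a terminator of ribosomal DNA transcription, and Rrp36 (1.07-fold). Ribosomal protein genes, the other large part of ribosome production, went the other way: of 82 measured, 72 were higher and 10 lower, with a median of 0.15, and their sum was 1.12-fold (1.119 to 1.12).

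Cells differed in how much Pf4 they held, and Pf4 marks cells on the way to megakaryocytes. Ranges of cells were cut at 0.021%, 0.056%, 0.273% and 0.816% of a cell's UMIs, the quartiles and the 90th percentile of DMSO cells, and used for both libraries. The lowest range held 1458 DMSO and 1348 RO-3066 cells and the highest 584 and 344. In DMSO the summed member level was 11212 CPM in the lowest range, 12114 in the fourth and 10783 in the highest. In RO-3066 it stood at 9819 CPM in the lowest, at 9740.8, 9728 and 9357 in those between and at 8149 in the highest. RO-3066 was therefore below DMSO in 5 of 5 ranges, at 0.876-fold (0.872 to 0.8798) in the lowest and 0.756-fold (0.752 to 0.759) in the highest. The median log2 ratio of the members was -0.14 and -0.35 in these ranges. At least 1.2-fold lower were 8 of 35 members in the lowest range, against 13.0% of all genes, and 24 of 35 in the highest, against 27.3%. The proliferation genes Mki67 plus Top2a also differed between the libraries in these ranges. They stood at 864 CPM in DMSO and 803 in RO-3066 in the lowest range and at 912 and 551 in the highest. The part of this difference in the ratios was not tested.

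**Figure D3:**
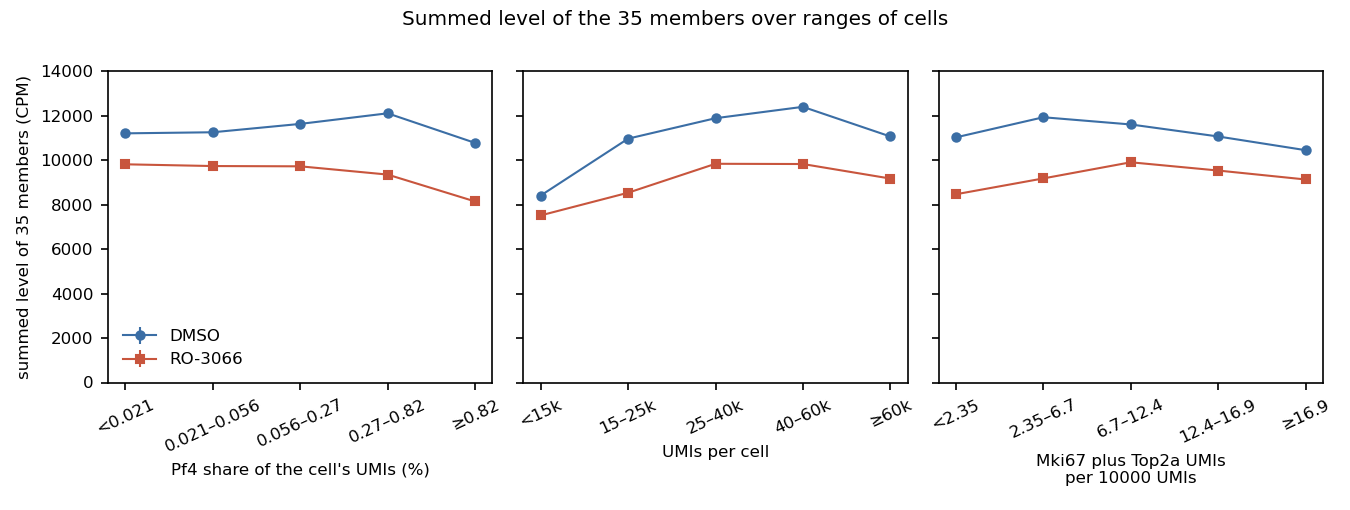
Summed level of the 35 members in CPM (vertical axis from 0) in 5 ranges of cells by Pf4 share, UMIs per cell and Mki67 plus Top2a UMIs per 10000 UMIs, with 95% counting intervals that are smaller than the symbols. The RO-3066 squares lie below the DMSO circles in 15 of 15 ranges; over UMIs per cell both curves rise and then fall.

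Few members differed along Pf4 in DMSO. From the lowest to the highest range, DMSO had 5 of 35 members at least 1.2-fold higher (23.5% of all genes were) and 2 lower by that fold (27.3%). The median log2 ratio there was 0.0066, against -0.020 over all genes. In RO-3066 5 were higher (20.5%) and 16 lower (35.6%), and the median was -0.25, against -0.11 over all genes. This value shrank to -0.11 with 3 ranges in place of 5 and to -0.16 with thinned cells. Among cells of 15000 to 40000 UMIs alone the DMSO median was -0.062, and RO-3066 had only 17 such cells in the highest range, too few for a value. Bop1 was higher in Pf4-high cells of both libraries, from 42.6 to 60.1 CPM in DMSO and from 38.2 to 53.0 in RO-3066. Rrp12 went from 17.9 to 24.8 CPM and from 16.3 to 22.0, and Bysl from 27.4 to 37.7 and from 24.1 to 31.1. These 3 genes act at different steps, large subunit processing, export and late small subunit assembly.

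Noc3l and Wdr12 were lower in Pf4-high cells of both libraries. Noc3l went from 51.9 to 33.4 CPM in DMSO and from 37.7 to 21.1 in RO-3066, and Wdr12 from 158 to 109 and from 128 to 81.5. Polr1c was lower too, from 47.3 to 39.3 CPM and from 50.4 to 43.7. Wdr12 and Bop1, partners in 1 complex, thus went opposite ways along Pf4 in each library. Nucleolin differed between the libraries: Ncl had 2492 and 2503 CPM in the lowest and highest range in DMSO (1.005-fold, 0.995 to 1.01) but 2117 and 1579 in RO-3066 (0.746-fold, 0.738 to 0.754). Noc4l had 43.9 and 53.3 CPM in DMSO and 39.9 and 61.7 in RO-3066, the opposite direction to Ncl there. The difference between libraries in these slopes has no replicates and was not tested.

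**Figure D4:**
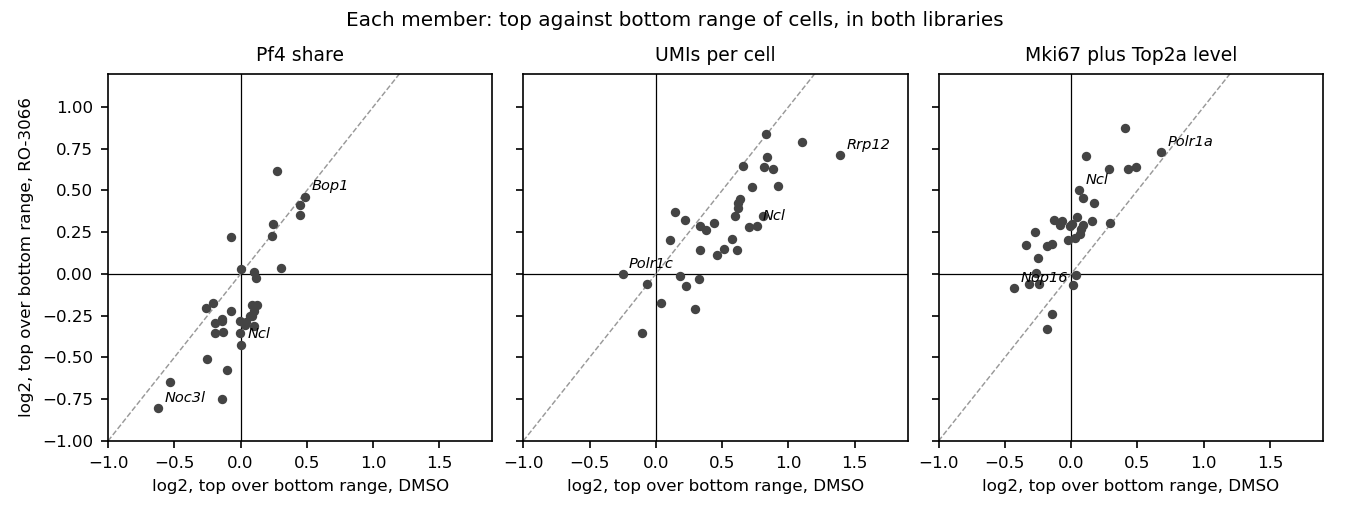
Each point is 1 of the 35 members, with the log2 ratio of its level in the highest over the lowest range of cells in DMSO (horizontal) and RO-3066 (vertical); the dashed line marks equal ratios. Over UMIs per cell most points are right of 0, with Rrp12 the farthest, and over Pf4 share Ncl is at 0.0066 in DMSO and at -0.42 in RO-3066.

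Cells with at least 15000 UMIs held a larger share of member transcripts than cells with fewer, in both libraries. Over ranges of UMIs per cell (under 15000, up to 25000, 40000 and 60000, and above) the summed level in DMSO was 8415, 10974, 11894, 12405 and 11072 CPM. In RO-3066 it was 7520.3, 8540.2, 9843, 9832 and 9178 CPM. The level was thus lowest in the cells with fewest UMIs and fell again above 60000 UMIs, a range of 360 DMSO and 843 RO-3066 cells. The RO-3066 level was below that of DMSO in 5 of 5 ranges. The lowest ratio was 0.778-fold (0.774 to 0.783) at 15000 to 25000 UMIs and the highest 0.894-fold (0.8804 to 0.907) under 15000. Because UMIs per cell also depend on sequencing depth, the same range need not hold like cells in both libraries. Cells under 15000 UMIs differed in other ways between the libraries, with 245 CPM of Mki67 plus Top2a in DMSO and 1129 in RO-3066. In that range the median over members was only -0.048, with 15 of 35 higher against 58.7% of all genes, and the part of the Mki67 plus Top2a gap in this was not tested. When RO-3066 cells were weighted to the DMSO spread over these ranges, the log2 ratio of the sum was -0.30 in place of -0.28.

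In DMSO, cells above 60000 UMIs were compared with cells under 15000. Of 35 members, 26 were at least 1.2-fold higher (34.9% of all genes were) and 0 lower by that fold (29.6%). The median was 0.57 (0.33 to 0.66), against 0.053 over all genes, and with 3 ranges in place of 5 it was 0.28. In RO-3066 the counts were 21 (22.5%) and 1 (36.2%), with a median of 0.29 (0.15 to 0.39) against -0.090. Rrp12 had the steepest slope in DMSO, from 9.66 CPM to 26.9 (2.79-fold, 2.11 to 3.76), and went from 13.5 to 22.8 in RO-3066. Bop1 went from 29.5 to 64.6 and from 29.8 to 52.1 CPM, and Bysl from 18.9 to 36.7 and from 20.8 to 30.5. Polr1c had 49.2 and 41.2 CPM in DMSO and 46.3 and 46.2 in RO-3066, Noc3l 37.7 and 34.9 and then 32.2 and 24.97, and Wdr12 114 and 109 and then 109 and 105. Ncl went from 1560 to 2643 CPM in DMSO but only from 1509 to 1840.3 in RO-3066. For Ncl both libraries thus began alike and the gap opened in cells with more UMIs. Npm1 did not share this. Its log2 ratio of RO-3066 over DMSO was -0.35 under 15000 UMIs and -0.13 above 60000. Across single cells thinned to 10000 UMIs, Spearman's rho of member UMIs with the cell's full UMI count was 0.32 over 5749 DMSO cells and 0.20 over 3559 RO-3066 cells, as a description of cells that share a library. With Pf4 share rho was 0.061 and -0.082, and with the Mki67 plus Top2a level -0.043 and 0.044, all close to 0. With ribosomal protein UMIs it was -0.39 and -0.17. Both counts are parts of the same 10000 UMIs, so more of 1 leaves fewer for the other. A negative rho is thus favoured in advance and shows no opposition between the gene sets.

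Pf4 share and UMIs per cell are linked. The median cell had 21491 UMIs in the lowest and 53492.5 in the highest Pf4 range in DMSO. In RO-3066 these medians were 25344.5 and 89489.5. Cell size itself was not measured. Among cells above 60000 UMIs the members summed to 12366 CPM in the fourth Pf4 range and 10716 in the highest in DMSO, and to 10845, 10139, 9476 and 8168 from the second to the highest range in RO-3066. Within cells above 60000 UMIs of both libraries, those with most Pf4 thus held the smallest share of member transcripts. Among DMSO cells of 15000 to 25000 UMIs the sums lay between 10864 and 11008 CPM over all 5 Pf4 ranges and showed little of this.

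Mki67 and Top2a, which encode proteins of mitotic chromosomes and mark proliferating cells, were used to order cells by proliferation. Limits were 2.35, 6.70, 12.4 and 16.9 UMIs of the pair per 10000. In DMSO the summed member level was 11032 CPM in the lowest range, 11937 in the second and 10456 in the highest. In RO-3066 it was 8472 CPM in the lowest, 9910.3 in the third and 9137 in the highest. RO-3066 was at 0.768-fold (0.763 to 0.773) among the 1458 DMSO and 411 RO-3066 cells lowest in the pair and at 0.874-fold (0.867 to 0.8808) among the 584 and 335 highest. The median over members was -0.31 in the lowest range, where 21 of 35 were at least 1.2-fold lower (21.4% of all genes were), and -0.034 in the highest, where 4 of 35 were (11.4%). The gap between the libraries was thus smaller in cells high in the pair, a difference that was not tested. The same range did not hold like cells in both libraries. The median cell had 18117 UMIs in DMSO and 24785 in RO-3066 in the lowest range, and 28186 and 22224 in the highest. Pf4 stood at 4046 and 3842 CPM in the lowest range and at 3795 and 1800 in the highest. The part of these differences in the ratios was not tested.

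**Figure D5:**
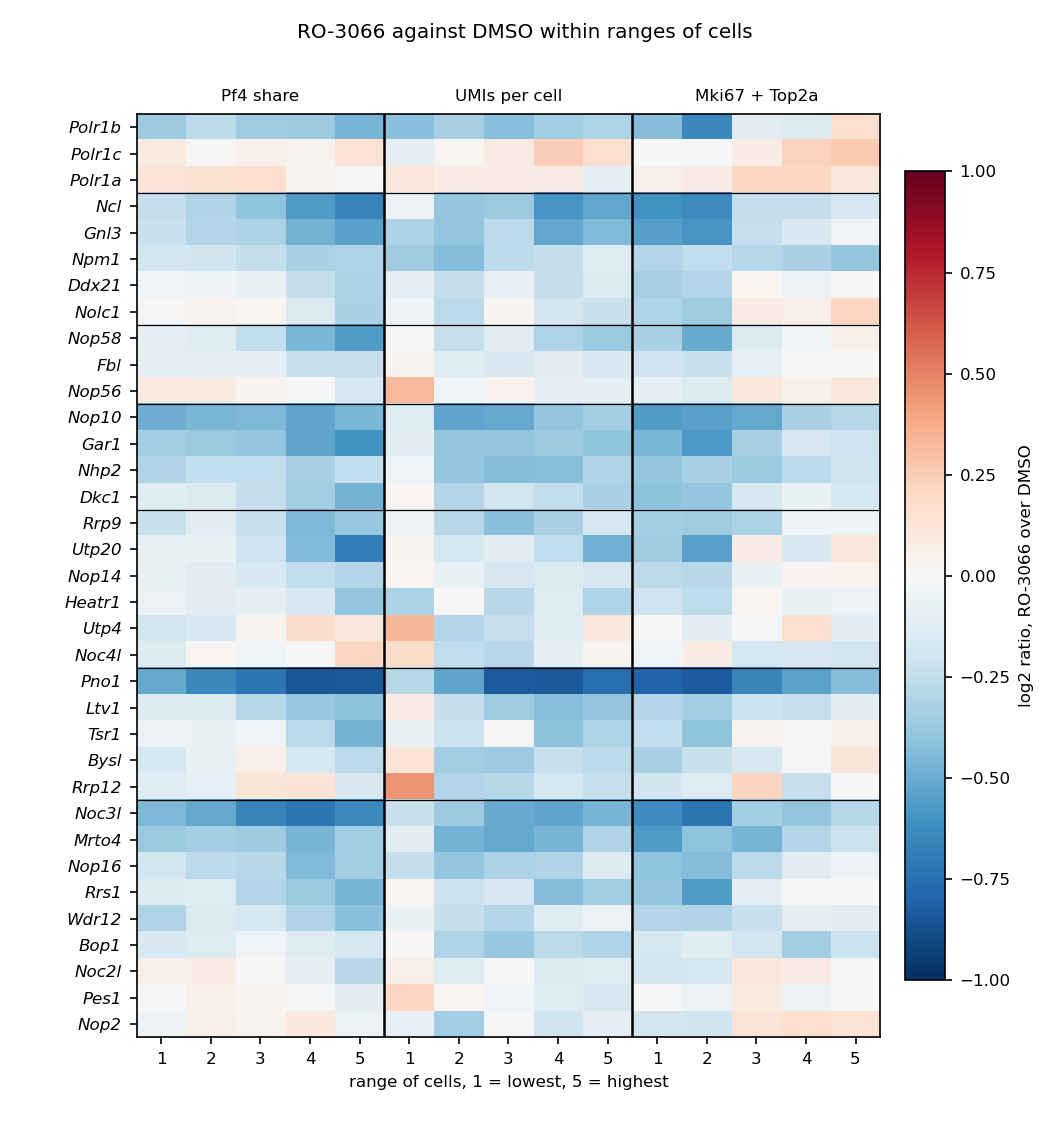
Colours give the log2 ratio of RO-3066 over DMSO for each of the 35 members (rows, grouped by role) within 5 ranges of cells by Pf4 share, UMIs per cell and Mki67 plus Top2a level (columns, 1 lowest to 5 highest). Blue is lower in RO-3066. Pno1 and Noc3l are blue in every column, as are other members such as Npm1 and Nop10. For most members the blue deepens to the right over Pf4 share and fades to the right over Mki67 plus Top2a.

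Along the Mki67 plus Top2a level, all genes leaned upward, and the members did less so in DMSO. At least 1.2-fold higher in the highest range than in the lowest were 6 of 35 members in DMSO, against 36.9% of all genes, and 19 of 35 in RO-3066, against 42.8%. At least 1.2-fold lower were 5 (11.4%) and 1 (12.3%). The medians were 0.018 (-0.13 to 0.073) and 0.29 (0.18 to 0.32), against 0.14 and 0.19 over all genes. Among cells of 15000 to 40000 UMIs the medians were -0.090 and 0.12, and with thinned cells the RO-3066 median was 0.16. Polr1a was higher with the pair in both libraries, from 24.6 to 40.1 CPM in DMSO and from 25.6 to 43.2 in RO-3066. Heatr1 went from 25.5 to 36.2 and from 21.9 to 34.7 CPM, and Rrp12 from 15.8 to 21.6 and from 13.6 to 21.5. Lower in DMSO cells high in the pair were Nop16 (98.9 and 73.2 CPM, then 74.4 and 70.2 in RO-3066), Gnl3 (306 and 241, then 208 and 236) and Polr1c (50.3 and 40.2, then 50.5 and 48.3). Gnl3 thus went down with the pair in DMSO and up in RO-3066. Ncl had 2342 and 2446 CPM in DMSO and 1537 and 2179 in RO-3066, whereas Npm1 was lower in cells high in the pair in both libraries, from 4086 to 3695 CPM and from 3339 to 2824.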

How the data were processed

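The values the authors deposited are raw UMI counts, 1 matrix of genes by barcodes per library. Per the labels, libraries were made with the 10x Genomics 3' workflow. The submitters' processing notes name Cell Ranger 5.0.1 and mm10, while per the file headers the matrices are from Cell Ranger 7.1.0; the annotation release and intron counting were not stated there. Barcodes with at least 1000 UMIs, 500 genes and at most 10% mitochondrial UMIs were kept (26 DMSO and 84 RO-3066 left out), and 301 and 115 likely doublets were removed, ranked by the share of artificial pairs near each cell (50 nearest points) and taken at a rate of 0.8% for each 1000 barcodes. UMIs were summed over kept cells into CPM; log2 ratios used a pseudocount of 1 CPM and a minimum mean of 5 CPM. Ranges with under 50 cells gave no value. Gene coordinates are from GENCODE vM21 (mm10), and promoter sequences from RefSeq. Ribosomal protein genes were taken by a pattern of symbols. With 1 library per treatment no test was possible; folds have exact conditional Poisson intervals and medians exact binomial ones over genes. Calculations were tested on simulated data. The members and gene lists were chosen with earlier results of these data known. Genes named in full were Ncl, Npm1 and Fbl, the lowest and highest of each role group, the 5 lowest and 5 highest other pathway genes of at least 20 CPM, the lowest and highest snoRNA host and Myc network gene, and the 3 most extreme members along each ordering of cells; other members are named for their role. Alternatives covered scaling, cell weights, thinning, filters, cell makeup, pseudocount, minimum level and ranges. Python 3.11.15, numpy 2.4.6, scipy 1.17.1, pandas 2.3.3 and scikit-learn 1.9.0 were used.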

Additional observations from a re-analysis of the deposited data

Results flagged for a closer look

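The median log2 ratio of the 35 members between the highest and the lowest range of Pf4 share had opposite signs in the libraries, at 0.0066 in DMSO and -0.25 in RO-3066. The DMSO value is close to 0, with an interval over members of -0.10 to 0.099, and it was -0.062 among cells of 15000 to 40000 UMIs, where RO-3066 had too few cells for a value. Over all genes the medians were -0.020 and -0.11. With 1 library per treatment the difference was not tested. The summed level was lower in Pf4-high cells in both, at 0.962-fold (0.958 to 0.966) in DMSO and 0.830-fold (0.826 to 0.834) in RO-3066.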

How the results depend on the processing

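The members' median of -0.24 stayed negative and within its interval over members under all 14 alternatives. The log2 ratio of the summed level, -0.28, was -0.27 with median-ratio scaling, -0.20 with totals without ribosomal protein and mitochondrial genes, -0.27 with every cell at the same weight, -0.27 with thinned cells, -0.24 without Ncl and Npm1 (an alternative added after the data were seen), and -0.29, -0.30 and -0.29 with RO-3066 cells weighted to DMSO by Pf4 share, UMIs and Mki67 plus Top2a. The count at least 1.2-fold lower was 8 under the totals without ribosomal protein genes, and the count at least 1.5-fold lower was 2 with weighting by Pf4 share. Between highest and lowest ranges, 3 ranges in place of 5 gave -0.11 for Pf4 share in RO-3066 and 0.28 for UMIs in DMSO. Thinned cells gave -0.16 for Pf4 share and 0.16 for Mki67 plus Top2a in RO-3066. Cells of 15000 to 40000 UMIs gave -0.062 for Pf4 share and -0.090 for Mki67 plus Top2a in DMSO, both reversed, and 0.12 for Mki67 plus Top2a in RO-3066; Pf4 share in RO-3066 could not be fitted with 17 cells. The cause of these shifts was not tested.

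Of 49 genes named, 7 changed sign under at least 1 setting, all of them near equality. Totals without ribosomal protein genes gave 0.045 for Rrp12, 0.061 for Pes1 and 0.039 for Noc2l. Equal cell weight gave -0.072 for Utp4, -0.071 for Noc4l, 0.010 for Pes1 and -0.019 for Nop2, and thinned cells -0.048, -0.068 and -0.027 for Utp4, Noc4l and Nop2. Weighting by Pf4 share gave 0.0023 for Rrp12. Weighting by UMIs gave -0.018 for Nop56, -0.15 for Utp4, -0.17 for Noc4l and -0.15 for Nop2, and weighting by Mki67 plus Top2a -0.0023, -0.011, -0.039 and -0.0029 for the same genes. No paired analysis was possible because each treatment had 1 library. Depth limits the smallest members most: Polr1b had 2581 and 1860 UMIs.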

Other observations

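Host genes of small nucleolar RNAs carry the guide RNAs of the snoRNPs in their introns. Those on the list used here did not, as a set, share the lower level of the snoRNP protein genes. Host genes not on this list were not examined as a set. Of 10 such genes, all above 5 CPM on average, 8 were higher and 2 lower in RO-3066 (51.3% of all genes were lower), 5 were at least 1.2-fold higher (18.7% of all genes were), with a median log2 ratio of 0.20, and their sum was 1620.4 CPM in DMSO and 2175 in RO-3066 (1.34-fold, 1.336 to 1.35). Zfas1 had 105 CPM in DMSO and 207 in RO-3066, 1.97-fold (1.94 to 2.01), and the lowest, Snhg3, 123 and 96.5 CPM (0.786-fold). Gas5 (655 and 1013 CPM) and Snhg12 (38.6 and 75.9 CPM) were chosen after their values were seen. These are levels of the spliced or unspliced host transcript at its 3' end and not of the small RNAs.

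Of 11 genes of the Myc network 10 were measured, 5 lower and 5 higher (51.3% of all genes were lower), with a median of 0.012. Mxd3 was lowest, at 11.4 CPM in DMSO and 6.48 in RO-3066 (0.567-fold), and Mxd1 highest, at 7.36 and 10.3 CPM (1.40-fold). Myc, named after its values were seen, had 68.9 and 64.9 CPM (0.941-fold, 0.917 to 0.966), and Mycn 93.3 and 75.1 CPM (0.805-fold, 0.786 to 0.824).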
